A study of Mus musculus with 18 samples.

Results

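The 6 genes described here carry out the last step of carbohydrate digestion and the uptake of its main product in the small intestine: 4 disaccharidases, *Sis*, *Mgam*, *Lct* and *Treh*, and 2 glucose transporters, *Slc5a1* and *Slc2a2*. They were taken by symbol from the 18838 genes listed in at least 1 of 3 tables, and all 6 were listed, and passed the filter on low values, in each table. The group was chosen by earlier results of these data that included the day 1 difference between genotypes for *Sis* and *Lct*, so day 1 values of the 6 genes are given as a description with no p-value. The libraries came from duodenal crypts of 3 WT (Mtgr1+/+) mice and 3 mice null for *Mtgr1* in all tissues (Mtgr1-/-), age-matched littermates of both sexes; the study took crypts for enteroid culture at 8 to 12 weeks of age. Crypts of each mouse were sampled fresh and again as enteroids after 24 h (day 1) and 72 h (day 3) in culture, giving 6 groups of 3 libraries and 18 libraries in all. MTGR1, encoded by *Cbfa2t2*, is a transcriptional corepressor, and the comparison asks how its loss alters gene expression in crypts and in the enteroids grown from them.

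Dietary starch and sugars reach the enterocyte surface as short oligosaccharides. Sucrase-isomaltase (*Sis*) and maltase-glucoamylase (*Mgam*) split maltose, sucrose and branched fragments, lactase (*Lct*) splits milk sugar, and trehalase (*Treh*) splits trehalose, all anchored in the brush border membrane. The glucose set free enters the cell with sodium through SGLT1 (*Slc5a1*) and leaves on the basolateral side, largely through GLUT2 (*Slc2a2*). In rodents lactase is the disaccharidase of the suckling animal and declines at weaning, when sucrase-isomaltase and trehalase appear. These genes are markers of the absorptive lineage.

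In GENCODE M21 (GRCm38), *Sis* lies on chr3:72888557-72967863 (minus strand), *Mgam* on chr6:40628831-40769123 (plus), *Lct* on chr1:128284756-128328318 (minus), *Treh* on chr9:44673233-44686305 (plus), *Slc5a1* on chr5:33104219-33162870 (plus) and *Slc2a2* on chr3:28697903-28731359 (plus). Their transcripts shared few 31-base words with transcripts of other genes: none for *Lct* and *Slc5a1*, 0.202% of the words of *Sis*, 0.591% for *Slc2a2*, 0.662% for *Mgam* and 2.66% for *Treh*. The 250 bases before the start of *Sis*, *Mgam* and *Lct* are shown. Among the 4 disaccharidases, *Sis* and *Lct* lay furthest apart in their genotype difference at each time. The promoters of these genes are textbook targets of CDX2 and GATA factors. *Mgam*, the close relative of *Sis*, is shown beside them. Sequences are from RefSeq (GRCm38.p6), 5' to 3' on the strand of the gene, from chr3:72967864-72968113, chr6:40628581-40628830 and chr1:128328319-128328568. Capitals mark matches on either strand to 2 words. That searched for the CDX factors, which include CDX2, was TTTAT. That for the GATA factors was AGATAA. A CDX and a GATA match overlap in *Lct*, and CDX matches on opposite strands abut in *Sis*.
Sis: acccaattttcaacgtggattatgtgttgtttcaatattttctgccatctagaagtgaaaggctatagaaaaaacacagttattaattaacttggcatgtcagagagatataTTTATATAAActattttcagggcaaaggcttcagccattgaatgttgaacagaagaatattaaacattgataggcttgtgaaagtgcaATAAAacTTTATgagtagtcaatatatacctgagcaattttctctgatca
Mgam: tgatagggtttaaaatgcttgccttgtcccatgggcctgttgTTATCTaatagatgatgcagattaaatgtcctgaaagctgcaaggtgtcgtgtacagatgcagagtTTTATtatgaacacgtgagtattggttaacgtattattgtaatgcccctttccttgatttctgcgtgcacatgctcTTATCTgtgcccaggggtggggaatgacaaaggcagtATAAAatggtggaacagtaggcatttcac
Lct: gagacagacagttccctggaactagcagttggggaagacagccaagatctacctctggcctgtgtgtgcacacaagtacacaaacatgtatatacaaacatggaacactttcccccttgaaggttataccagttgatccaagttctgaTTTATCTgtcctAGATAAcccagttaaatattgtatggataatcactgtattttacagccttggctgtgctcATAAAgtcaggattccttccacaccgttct
The *Sis* window held 4 CDX matches and 0 GATA matches. The *Mgam* and *Lct* windows each held 2 CDX and 2 GATA matches, and the windows of *Treh*, *Slc5a1* and *Slc2a2* held no match to either word. Of 32851 promoter windows of this length, 37.3% held the CDX word and 9.99% the GATA word. These are matches of letters to a single word for each family of factors. Other forms of these sites were not searched, and the matches were not related to binding.

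Between 22035316 and 28621990 reads on genes were recovered for 16 of the 18 libraries. *Cbfa2t2* itself ranged from 523 to 614 normalized counts in WT crypts and from 466 to 697 in the crypts labelled null. At day 1 it ranged from 710 to 788 in WT and from 789 to 1160 in null libraries (log2 difference 0.37, limma adjusted p = 0.0557), and at day 3 from 774 to 883 and from 766 to 976. The sources used here do not say which part of the transcript the allele removes, so this level does not check the labels. All 16 enterocyte markers chosen outside the 6 genes were detected, and the 3 ileal markers summed to at most 226 normalized counts in any library. In libraries labelled null, the summed markers of goblet, Paneth and enteroendocrine cells were below all WT libraries at each time point. Libraries of null mouse 2 had the highest Paneth sum among null libraries at each time point (42546, 6436 and 8458 normalized counts in crypts, day 1 and day 3, against 748 to 3249 in the other two mice), and the crypt library of WT mouse 3 held 5871 normalized counts of immune markers against 560 and 584 in the other WT crypt libraries. The stromal and endothelial markers summed to at most 220 and the pancreatic acinar markers to at most 139 normalized counts.

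*Sis* was the most abundant of the 6 transcripts per kilobase in WT crypts, and its WT mean there was 20.2 times the null mean. The other 5 genes did not pass the threshold in crypts. The WT crypt libraries held 192696, 222520 and 205795 normalized counts of *Sis* (counts divided by a size factor per library), and the null crypt libraries held 4362, 15132 and 11322. The highest null library lay far below the lowest WT library. *Sis* fell by 4.51 on the log2 scale of normalized count + 1 (SE 0.43, limma, adjusted p = 0.00285), and it was the 1 member called of 6, where 4.73% of all 12980 genes tested were called and 3.15% were called lower. In bulk RNA, fewer cells expressing a gene and less RNA per cell cannot be told apart. Throughout, rose and fell compare null with WT at the same time point and do not describe a change with time.

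*Mgam*, the close relative of *Sis* with overlapping substrates, was also lower in null crypts. Its WT values were 139150, 158878 and 163308 and its null values 62144, 86903 and 108356 normalized counts. The groups did not overlap, but the difference of -0.88 (SE 0.27) did not pass the threshold (limma adjusted p = 0.136). *Slc2a2*, the basolateral glucose exit, read 13470, 16416 and 16358 in WT crypts and 8588, 7562 and 13402 in null crypts. These groups did not overlap either, with a log2 difference of -0.69 (SE 0.22, limma adjusted p = 0.152). Both differences passed the threshold when libraries were weighted by their quality (adjusted p = 0.0188 and 0.0475). That of *Mgam* also did with DESeq2 on the recovered reads of 5 libraries, without WT library 2 (adjusted p = 0.0209), and that of *Slc2a2* also did without null mouse 3 (adjusted p = 0.0318). The groups did not overlap for 3 of the 6 genes, against 25.5% of all genes.

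*Slc5a1*, the apical sodium-glucose cotransporter, was at 85041, 96115 and 100866 normalized counts in WT crypts and at 54431, 53224 and 85318 in null crypts. One null library lay just above the lowest WT library, and the log2 difference was -0.58 (SE 0.24, limma adjusted p = 0.263). *Treh* read 4699, 4500 and 4808 in WT crypts and spread more widely in null crypts, at 4202, 2301 and 6393. Its log2 difference of -0.24 (SE 0.33, limma adjusted p = 0.761) turned to 0.15 without null mouse 2. *Lct* stood at 8083, 6588 and 28003 in WT crypts and at 13332, 8044 and 17954 in null crypts. Mouse 3 was highest in both genotypes, and its WT crypt library is the one with the high immune marker sum, whose part in the *Lct* level was not tested. The *Lct* difference was 0.12 (SE 0.56, limma adjusted p = 0.938) and was 0.77 without that library (adjusted p = 0.304). Its sign depended on the fit: it was -0.48 with edgeR and -0.46 with DESeq2 on 5 libraries, and -0.13, -0.27 and -0.14 without WT library 1, WT library 2 and null library 3.

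**Figure D1:**
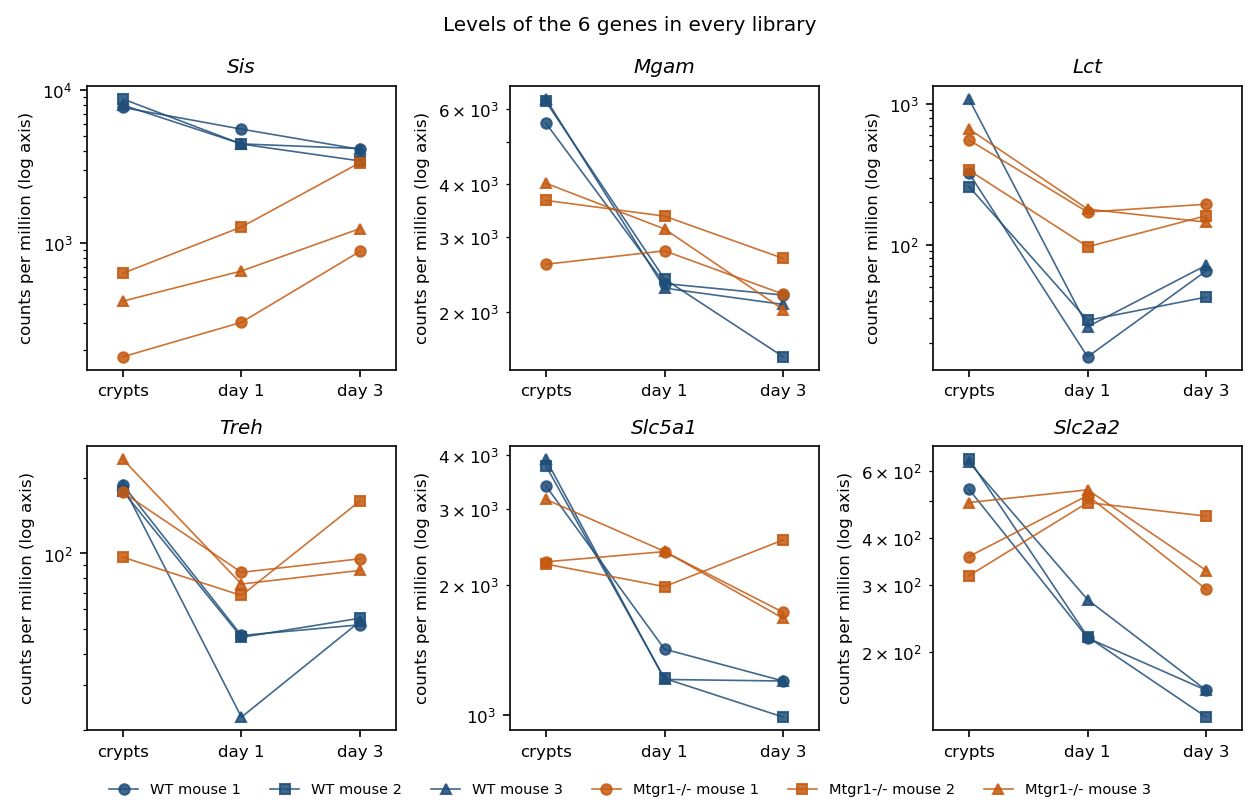
CPM, that is counts scaled to a column sum of 1000000 in each library (log axis), for each of the 6 genes in crypts, day 1 and day 3 enteroids; each line joins the libraries of 1 mouse, blue for WT and orange for Mtgr1-/-. *Sis* lies below WT in all null libraries on this scale, narrowly so for mouse 2 at day 3 (3361 against 3442 to 4145 in WT), and the other 5 genes lie above WT in all null libraries at day 1.

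At day 1 the direction was split within the disaccharidases: *Sis* remained lower in null enteroids, while *Mgam*, *Lct*, *Treh* and both glucose transporters were higher. The 3 libraries of each genotype did not overlap for any of the 6 genes; this time point contributed to their choice, 68.1% of all 12587 genes tested did not overlap, and 58.9% were called. *Sis* read 138314, 101781 and 105137 normalized counts in WT and 9489, 34651 and 20520 in null enteroids. The mean was 5.34-fold higher in WT (log2 difference -2.59, SE 0.42). *Lct* was the gene with the largest relative excess in null enteroids, with 398, 665 and 618 in WT and 5307, 2625 and 5571 in null. Its null mean was 8.03-fold the WT mean (log2 difference 2.96, SE 0.31).

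*Treh* read 1178, 1067 and 531 in WT and 2622, 1849 and 2356 in null day 1 enteroids (log2 difference 1.36, SE 0.29). The lowest *Treh* value, that of WT mouse 3, lay apart from the other WT libraries. *Slc5a1* stood at 35438, 27933 and 28617 in WT and at 74477, 53860 and 74540 in null, a log2 difference of 1.13 (SE 0.18). *Slc2a2* read 5426, 5032 and 6495 in WT and 16117, 13452 and 16684 in null, a log2 difference of 1.45 (SE 0.13). For both transporters the lowest null library lay well above the highest WT library. *Mgam* had 58001, 54733 and 53690 normalized counts in WT and 86588, 91034 and 97456 in null (log2 difference 0.72, SE 0.14). The size of this excess depended on the scaling, since the day 1 null libraries had larger column sums: it was 0.40 on CPM (counts scaled to 1000000 per library), a scale that moved the median of all genes by -0.32, and 0.085 after quantile normalization. The same scalings gave 0.81 and 0.51 for *Slc5a1*. The log2 difference of *Sis* was -3.37 when libraries were weighted by their quality.

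At day 3 the glucose transporters, *Lct* and *Treh* remained higher in null enteroids and *Sis* approached WT in 1 mouse. Of the 6 genes, 4 were called, all higher in null, where 59.0% of the 12782 genes tested were called and 29.9% were called higher. *Lct* read 1543, 1020 and 1733 normalized counts in WT and 5053, 4736 and 3929 in null enteroids. The groups lay well apart, and the log2 difference of *Lct* was 1.70 (SE 0.19, limma adjusted p = 0.000226). *Slc2a2* read 3746, 3237 and 3837 in WT and 7626, 13462 and 8913 in null, a log2 difference of 1.43 (SE 0.19, limma adjusted p = 0.000533). *Slc5a1* read 28369, 23803 and 29079 in WT and 45075, 75040 and 45549 in null, a log2 difference of 0.99 (SE 0.21, limma adjusted p = 0.00398). Null mouse 2 was the highest library for both transporters.

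*Treh* was at 1232, 1331 and 1304 normalized counts in WT day 3 enteroids and at 2484, 4770 and 2329 in null, a log2 difference of 1.23 (SE 0.24, limma adjusted p = 0.00318). Here too mouse 2 stood apart. *Mgam* read 51687, 37613 and 50348 in WT and 57275, 78637 and 54954 in null. The groups did not overlap, but the difference of 0.45 (SE 0.19) missed the threshold (limma adjusted p = 0.0692). *Sis* read 96759, 82711 and 100402 in WT and 23094, 99100 and 33900 in null. Null mouse 2 lay within the WT range of normalized counts, though just below it on CPM, and the other two null libraries lay far below. The log2 difference of *Sis* was -1.12 (SE 0.46, limma adjusted p = 0.0643), and it was -1.73 without null mouse 2 (adjusted p = 0.000133). The groups did not overlap for 5 of the 6 genes at day 3, as for 68.8% of all genes.

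**Figure D2:**
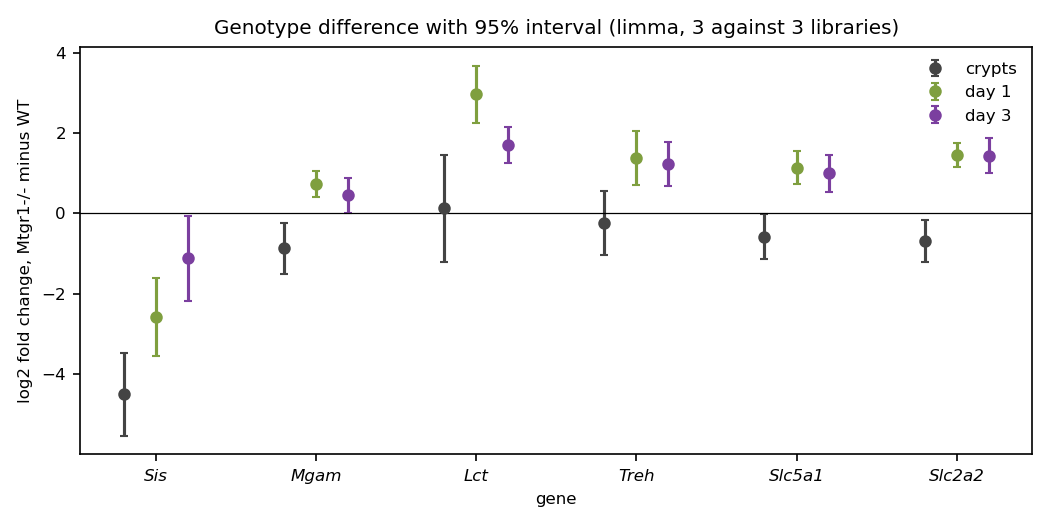
Log2 fold change of Mtgr1-/- against WT for the 6 genes in crypts, day 1 and day 3 (points, limma estimates; bars, 95% intervals; 3 libraries a group). *Sis* is below 0 at all 3 times, at -4.51, -2.59 and -1.12, while *Mgam*, *Slc5a1* and *Slc2a2* are below 0 in crypts and above 0 at both days of culture.

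The genotype difference was more positive at day 3 than in crypts for each of the 6 genes. The test of that change used all 18 libraries, with a term for the correlation between libraries of 1 mouse. That correlation was estimated at -0.0048 over all genes, so the fit in effect treated the 18 libraries as independent. The test called 5 of the 6 genes, all more positive at day 3. Of 12145 genes, 31.6% were called and 16.5% were called more positive. The change was 3.38 for *Sis* (SE 0.74, limma adjusted p = 0.00529) and 2.12 for *Slc2a2* (SE 0.30, adjusted p = 0.00043). It was 1.57 for *Slc5a1* (SE 0.31, limma adjusted p = 0.00322) and 1.32 for *Mgam* (SE 0.28, adjusted p = 0.00455). *Treh* changed by 1.47 (SE 0.48, limma adjusted p = 0.0323), a call lost with a replicate block (adjusted p = 0.0509) and when any 1 of 7 libraries was left out (adjusted p of 0.0530 to 0.0843), among them null mouse 2 in crypts (1.08) and null mouse 2 at day 3 (1.04). *Lct* changed by 1.58 (SE 0.64), short of the threshold (limma adjusted p = 0.0701); it passed with the replicate block (adjusted p = 0.0474) and without the crypt library of WT mouse 2 (1.98, adjusted p = 0.0312), and was 0.94 without that of WT mouse 3 (adjusted p = 0.143). From crypts to day 1 the differences moved by 1.92 for *Sis*, 1.60 for *Mgam*, 2.84 for *Lct*, 1.60 for *Treh*, 1.71 for *Slc5a1* and 2.13 for *Slc2a2*, given without a test.

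The 2 genotypes reached these differences along different courses in culture. The tables were normalized separately, so changes with time are given per mouse, on CPM, with no test. *Sis* declined in every WT mouse, from 7689 to 8745 CPM in crypts to 3442 to 4145 at day 3, a mean log2 change of -1.07 ± 0.24 (SD, n = 3). In every null mouse it went up at each step, from 181, 636 and 419 in crypts to 305, 1277 and 659 at day 1 and 886, 3361 and 1247 at day 3. Its mean log2 change from crypts to day 3 in null mice was 2.09 ± 0.45 (SD, n = 3). The order of the null mice was the same at all 3 times, with mouse 1 lowest and mouse 2 highest. Null mouse 2 was also highest for the Paneth markers at each time, and the part of those cells in the *Sis* level was not tested.

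From crypts to day 1, *Mgam* and the glucose transporters declined in WT mice and changed less in null mice. *Mgam* changed by -1.37 ± 0.11 (SD, n = 3) from crypts to day 1 in WT mice and by -0.13 ± 0.23 in null mice, where all 18 libraries scaled together gave 0.0047. *Slc5a1* changed by -1.53 ± 0.24 in WT and by -0.16 ± 0.24 in null mice over the same interval. *Slc2a2* changed by -1.36 ± 0.18 in WT mice, whereas all 3 null mice went up, by 0.43 ± 0.28 on average. From day 1 to day 3 *Slc2a2* was lower in all 6 mice, by a mean of -0.65 ± 0.17 in WT and -0.55 ± 0.38 in null. Over that later interval *Mgam* changed by -0.28 ± 0.29 in WT and by -0.43 ± 0.17 in null mice, and *Slc5a1* by -0.18 ± 0.15 and -0.21 ± 0.49.

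*Lct* and *Treh* were lower after 24 h in every mouse of both genotypes. *Lct* changed by -4.29 ± 1.11 (SD, n = 3) in WT mice, from 323, 259 and 1085 CPM in crypts to 16.0, 29.0 and 26.1. In null mice it changed by -1.80 ± 0.10, from 555, 338 and 664 to 170, 96.7 and 179. Between day 1 and day 3 *Lct* went up again in all WT mice, by 1.34 ± 0.75, and by 0.20 ± 0.52 in null mice, 1 of which went down. *Treh* changed by -2.32 ± 0.63 in WT and by -1.07 ± 0.57 in null mice from crypts to day 1, and by 0.55 ± 0.62 and 0.54 ± 0.62 from day 1 to day 3. These per-mouse spreads are wide, and the later changes depended on the scaling. With all 18 libraries scaled together by median ratios, the *Treh* change from day 1 to day 3 turned to -0.17 and -0.10 in null mice 1 and 3 and to -0.023 in WT mouse 1. That of *Lct* turned to -0.16 in null mouse 1, so that 2 null mice went down, and its null mean was 0.0068. Leaving out the 50 most abundant genes from the column sum turned none of these.

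Compared per kilobase of the longest annotated transcript, *Sis* led the 6 genes in WT crypts, at 1367 ± 91.6 CPM per kilobase (mean ± SD, n = 3), followed by *Mgam* at 931 ± 65.6 and *Slc5a1* at 900 ± 65.3. *Mgam* and *Slc5a1* did not differ beyond their spread between libraries, but within each of these libraries *Slc5a1* was the lower (ratio to *Mgam* 0.956 to 0.976). *Slc2a2* (109 ± 10.6), *Lct* (90.0 ± 74.5) and *Treh* (89.6 ± 2.85) formed a lower tier whose members lay within the spread of *Lct*. On this scale *Sis* ranked between 33 and 35 among all genes in the WT crypt libraries and between 617 and 2195 in the null crypt libraries. In null crypts *Slc5a1* (622 ± 127) and *Mgam* (526 ± 114) led, within each other's spread, and *Sis* was at 69.2 ± 38.2, in the range of *Lct* (84.1 ± 26.9), *Treh* (82.7 ± 34.2) and *Slc2a2* (70.1 ± 16.8).

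At day 1 the order per kilobase in WT was *Sis* (808 ± 108), *Mgam* (359 ± 8.80), *Slc5a1* (313 ± 29.4), *Slc2a2* (42.6 ± 5.83), *Treh* (18.9 ± 6.90) and *Lct* (3.84 ± 1.11). In null enteroids *Slc5a1* (550 ± 57.3) and *Mgam* (476 ± 44.6) led, followed by *Sis* (125 ± 82.6) and *Slc2a2* (92.7 ± 3.60), which did not differ beyond the spread of *Sis*, and by *Treh* (37.1 ± 3.91) and *Lct* (24.1 ± 7.32). At day 3 *Sis* led in WT at 654 ± 65.9, and in null enteroids *Slc5a1* (483 ± 119), *Mgam* (354 ± 51.4) and *Sis* (308 ± 225) overlapped. Within each of these null libraries *Slc5a1* was above *Mgam*, with a ratio of 1.24 to 1.51. *Lct* was lowest of the 6 at day 3 in both genotypes, at 9.68 ± 2.48 in WT and 26.9 ± 4.08 in null.

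The make-up of the disaccharidase transcripts followed from these levels and does not depend on a single scaling factor per library. *Sis* formed 51.9% to 57.4% of the summed level per kilobase of the 4 enzymes in WT crypts and 5.05% to 13.8% in null crypts. At day 1 its share was 65.4% to 70.8% in WT and 9.33% to 27.5% in null enteroids, and at day 3 it was 64.8% to 67.8% and 26.3% to 52.2%. The shares of the 2 genotypes did not overlap at any time. *Mgam* took most of the rest, with 66.0% to 72.9% in null crypts against 37.4% to 37.8% in WT crypts. *Lct* made up 7.10% to 14.9% in null crypts and 1.64% to 6.81% in WT crypts, and at day 1 it made up 2.01% to 5.03% in null and 0.196% to 0.412% in WT. The ratio of *Sis* to *Mgam* within a library was 1.37 to 1.53 in WT crypts and 0.0765 to 0.190 in null crypts, and at day 3 it was 2.04 to 2.40 in WT and 0.439 to 1.37 in null. The 2 transporters kept closer step than *Sis* and *Mgam*. The ratio of *Slc5a1* to *Slc2a2* per kilobase ranged from 5.43 to 10.3 over all 18 libraries. It was 7.95 to 8.57 in WT and 8.60 to 9.55 in null crypts. At day 1 it was 5.98 to 8.86 in WT and 5.43 to 6.27 in null, and at day 3 it was 9.98 to 10.3 and 6.93 to 8.02. *Slc5a1* and *Mgam* kept step about as closely, with a ratio of 0.807 to 1.51.

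**Figure D3:**
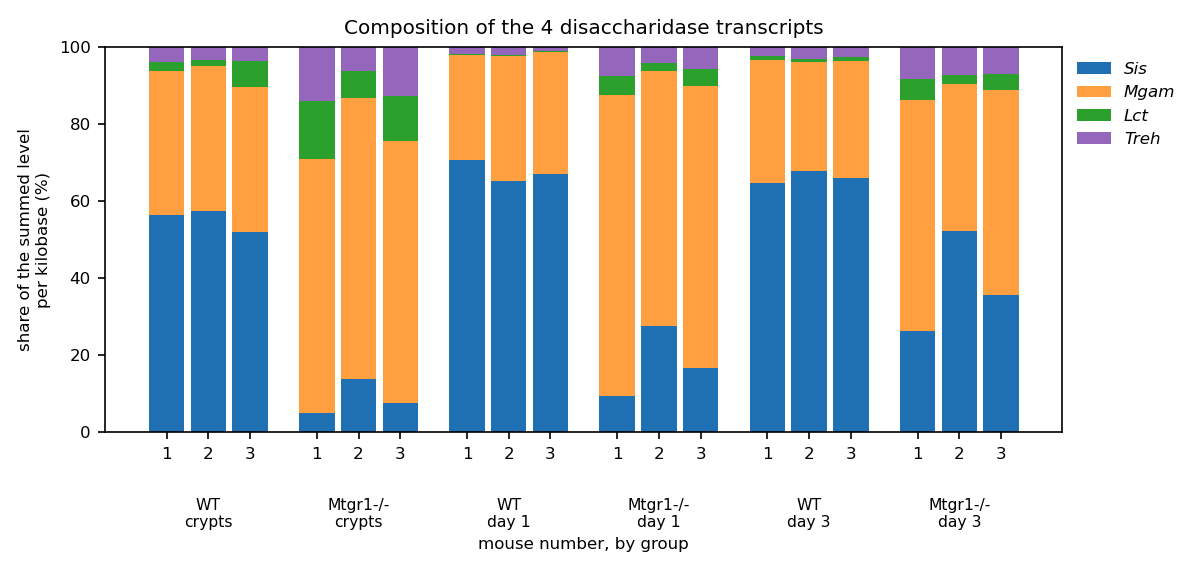
Share (%) of each disaccharidase in the summed level per kilobase of *Sis*, *Mgam*, *Lct* and *Treh*, with 1 bar for each of the 18 libraries. *Sis* forms 51.9% to 70.8% in WT libraries and 5.05% to 52.2% in null libraries, where *Mgam* leads in all but the day 3 library of mouse 2.

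Enterocyte markers outside the 6 genes moved with culture and genotype as well. The 16 markers, among them *Alpi*, *Apoa1*, *Apoa4*, *Fabp1*, *Fabp2*, *Anpep*, *Vil1*, *Slc15a1*, *Mttp* and *Krt20*, summed to 481438 to 564075 normalized counts in WT crypts and 503009 to 874989 in null crypts, and none of the 16 was called. At day 1 the sum was 222410 to 289785 in WT and 699816 to 1136787 in null, and at day 3 it was 146887 to 165422 and 489951 to 804056, with all 16 called higher at both days, where 30.0% and 29.9% of all genes were called higher. Their part in the higher level of the 5 genes was not tested. Set against this sum within each library, *Sis* stood at 365 to 435 per 1000 marker counts in WT crypts and at 6.52 to 30.1 in null crypts, and at day 3 it stood at 563 to 607 and 47.1 to 123. *Slc5a1* stood at 177 to 188 in WT and 81.3 to 106 in null crypts, at 119 to 126 and 65.6 to 77.0 at day 1, and at 162 to 176 and 90.4 to 93.3 at day 3. *Mgam* was below WT in every null library on this measure at all 3 times, at 256 to 321 in WT and 97.8 to 117 in null enteroids at day 3. *Treh* and *Slc2a2* were below WT in every null library in crypts and at day 3 and overlapped at day 1, where *Treh* stood at 2.21 to 4.80 in WT and 2.07 to 2.64 in null and *Slc2a2* at 18.7 to 27.0 and 14.3 to 19.2. *Lct* overlapped between genotypes in crypts (12.9 to 49.6 and 16.0 to 20.5) and at day 3 (6.94 to 10.5 and 5.89 to 10.3), and at day 1 it was 1.37 to 2.99 in WT and 3.75 to 4.90 in null.

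**Figure D4:**
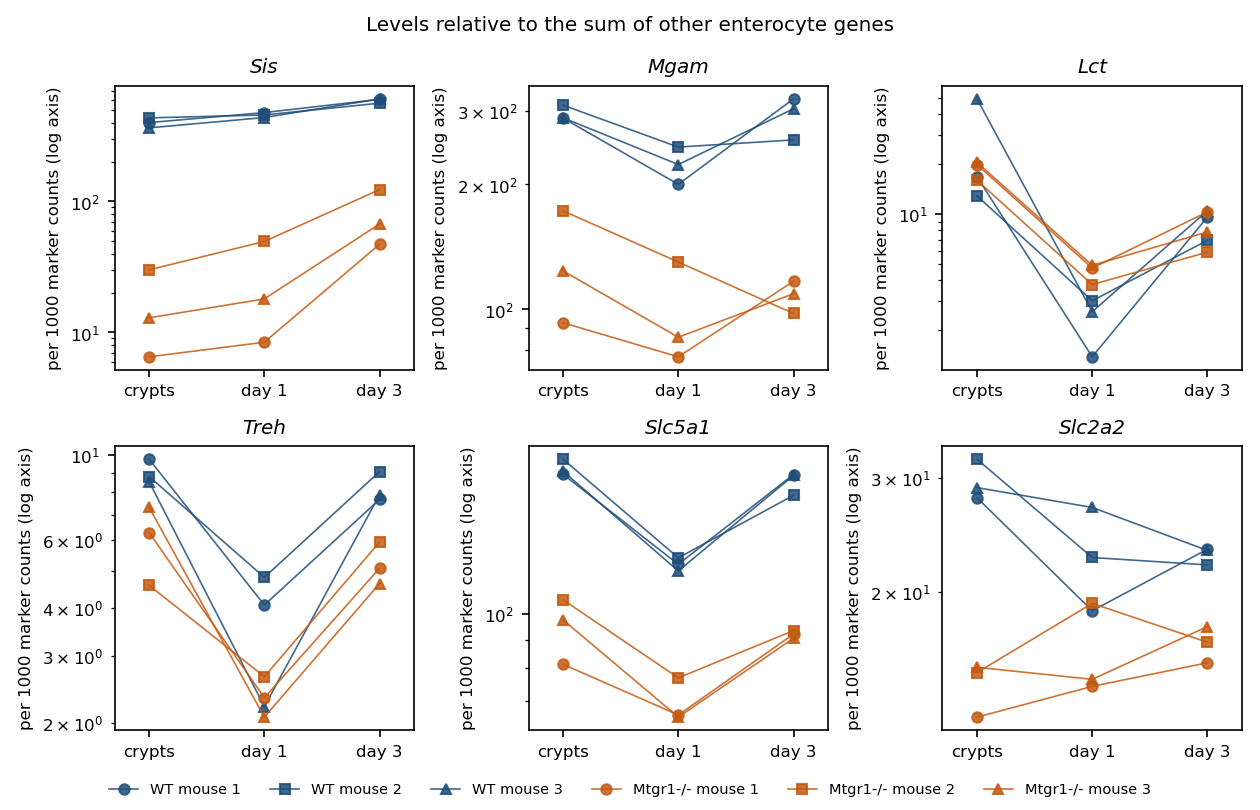
Normalized counts of each of the 6 genes per 1000 summed normalized counts of 16 other enterocyte genes in the same library (log axis); lines join the libraries of 1 mouse, blue for WT and orange for Mtgr1-/-. Null libraries lie below WT for *Sis*, *Mgam* and *Slc5a1* at all 3 times, *Treh* and *Slc2a2* overlap between genotypes at day 1, and *Lct* overlaps in crypts and at day 3.

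Other sugar transporters of the GLUT and SGLT families were compared as a list of 17 genes, of which 13 could be tested in crypts and 11 at each day of culture. In crypts 1 was called higher and 2 lower, at day 1 there were 9 higher and 1 lower, and at day 3 there were 6 higher and 1 lower. Of all genes 1.58% were called higher and 3.15% lower in crypts, 30.0% and 28.9% at day 1, and 29.9% and 29.1% at day 3, so that the 7 of 11 called in either direction at day 3 were near the share of all genes (59.0%). The median log2 difference of the list was -0.38, 1.42 and 0.71 at the 3 times, against 0.01, -0.01 and 0.00 over all genes. *Slc2a5*, the fructose transporter GLUT5, read 19885 ± 5741 normalized counts in WT crypts and 5748 ± 3205 in null crypts (log2 -1.88, limma adjusted p = 0.0449). At day 1 it read 3149 ± 976 in WT and 8635 ± 1610 in null (log2 1.49, limma adjusted p = 0.00147). At day 3 it read 3636 ± 618 and 4422 ± 1308 (limma adjusted p = 0.304). *Slc5a4b*, an SGLT1 relative, rose to 3869 ± 617 from 860 ± 340 at day 1 (log2 2.24, limma adjusted p = 0.000663) and to 6250 ± 2188 from 1172 ± 340 at day 3 (log2 2.40, adjusted p = 0.000193).

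*Slc2a1*, the widely expressed glucose transporter GLUT1, was the list's gene called higher in crypts, at 526 ± 101 in WT and 916 ± 72.4 in null (log2 0.82, limma adjusted p = 0.0385). *Slc2a9*, a urate transporter of the family, rose by 2.17 at day 1 (limma adjusted p = 9.52e-05), and *Slc2a6* rose by 3.66 at day 3 from a WT mean of 15.2 ± 8.71 normalized counts (adjusted p = 0.000104). *Slc2a10* fell at all 3 times, with log2 differences of -1.43 (crypts), -3.75 (day 1) and -2.87 (day 3; limma adjusted p = 0.0304, 0.000503 and 0.000172), from WT means of at most 81.1 normalized counts.

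**Figure D5:**
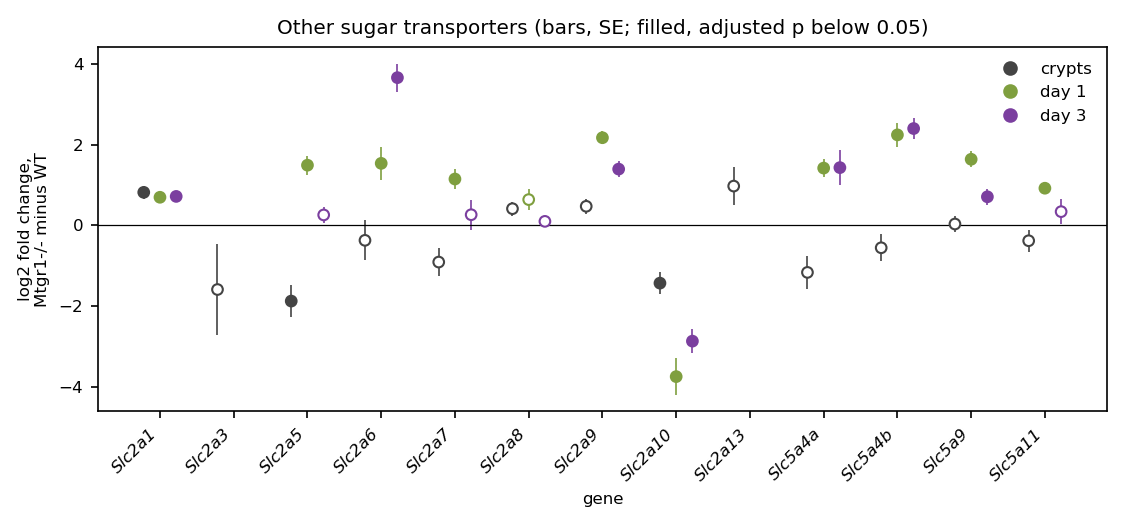
Log2 fold change (Mtgr1-/- minus WT, bars SE) of the tested GLUT and SGLT genes other than *Slc5a1* and *Slc2a2* in crypts, day 1 and day 3; filled points passed an adjusted p of 0.05. Most points lie above 0 at days 1 and 3, and *Slc2a10* lies below 0 at all 3 times.

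Intracellular glucosidases and lactase relatives, a list of 9 genes, had 1 of 5 tested called higher in crypts, 3 of 6 higher at day 1, and 2 of 6 higher with 1 lower at day 3. The share called in either direction at both days of culture was below that of all genes (58.9% and 59.0%). *Glb1*, the lysosomal beta-galactosidase, rose at each time, by 0.49 in crypts, 0.69 at day 1 and 0.60 at day 3 (limma adjusted p = 0.0455, 0.000752 and 0.00241). *Ganc*, a neutral alpha-glucosidase, rose by 0.95 at day 1 (limma adjusted p = 0.000539) and by 0.70 at day 3 (adjusted p = 0.0168), and *Gba2* fell by 0.42 at day 3 (adjusted p = 0.0256). The day 1 call of *Ganab*, an endoplasmic reticulum glucosidase subunit (log2 0.24, limma adjusted p = 0.0342), turned to -0.085 on CPM and to -0.11 after quantile normalization.

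SGLT1 runs on the sodium gradient kept by the sodium pump, and 8 genes of the pump and the brush border scaffold were tested. None was called in crypts, 6 were called higher and 2 lower at day 1, and 4 higher and 1 lower at day 3. Of all genes 58.9% were called at day 1 and 59.0% at day 3, and the 5 of 8 at day 3 were near that share. The scaffold protein gene *Slc9a3r1* (NHERF1) rose by 1.65 at day 1 (limma adjusted p = 0.000289) and 1.40 at day 3 (adjusted p = 8.91e-05). *Slc9a3*, the sodium-proton exchanger NHE3, rose by 1.44 (limma adjusted p = 0.00467) and 1.03 (adjusted p = 0.00234), *Pdzk1* rose by 1.75 at day 1 (adjusted p = 0.00156), and the pump subunit *Atp1b1* rose by 0.56 at day 3 (adjusted p = 0.0091). Of the 6 called higher at day 1, 1 read lower after quantile normalization.

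Factors known to act on disaccharidase genes were tested as a list of 18. Of these 1 was called in crypts, near the share of all genes called there (4.73%). That gene, *Mlxipl* (ChREBP, a carbohydrate-responsive factor), read 5927 ± 369 normalized counts in WT and 2926 ± 599 in null (log2 -1.04, limma adjusted p = 0.0138). In crypts *Cdx2* read 3657 ± 205 in WT and 4046 ± 625 in null (limma adjusted p = 0.614), *Gata4* 5340 ± 590 and 6023 ± 531 (adjusted p = 0.478) and *Hnf4a* 24472 ± 2161 and 27536 ± 2155 (adjusted p = 0.545). At day 1 there were 11 called higher and 1 lower, and at day 3 there were 9 higher and 1 lower; 1 of the 11 read lower on CPM. These 12 and 10 of 18 were near the shares of all genes called (58.9% and 59.0%). *Maf* rose by 2.01 and 1.97 (limma adjusted p = 0.000135 and 5.08e-05) and *Creb3l3* by 1.75 and 2.05 (adjusted p = 0.000185 and 6.51e-05).

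*Gata4* rose by 0.41 at day 1 (limma adjusted p = 0.00519) and by 0.30 at day 3 (adjusted p = 0.031). *Cdx2* rose by 0.39 at day 1 (limma adjusted p = 0.0303) and read 0.13 at day 3 (adjusted p = 0.346). *Hnf4a* read 0.23 and 0.11 (limma adjusted p = 0.0717 and 0.413). *Prdm1* (BLIMP1), a repressor that holds enterocytes in the suckling state, was at 190 ± 14.7 in WT and 160 ± 5.83 normalized counts in null crypts (limma adjusted p = 0.421). It was higher in null than in WT by 1.72 at day 1 and 1.66 at day 3 (limma adjusted p = 0.00665 and 0.00065). WT means at these days were 53.0 ± 25.4 and 29.2 ± 6.34, and null means were 166 ± 43.2 and 93.7 ± 12.6.

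Genes of the suckling enterocyte, a list of 8 that shares 3 genes with lists above, *Glb1* and *Prdm1* among them, had 1 of 6 tested called higher in crypts, 4 of 6 at day 1 and 6 of 7 at day 3, and none was called lower. Of all genes 1.58%, 30.0% and 29.9% were called higher at the 3 times, and 58.9% were called in either direction at day 1. *Fcgrt*, the neonatal Fc receptor, rose by 1.17 at day 1 and 1.75 at day 3 (limma adjusted p = 0.000202 and 3.83e-05), and *Lrp2* (megalin) rose by 3.23 at day 3 (adjusted p = 0.000226). The adult counterpart, *Arg2*, *Arg1* and *Slc2a5*, had 1 of 3 called lower in crypts, 2 of 2 tested called higher at day 1 and 1 of 3 called higher at day 3, against 3.15% of all genes called lower in crypts and 30.0% and 29.9% called higher at the days of culture. *Arg2*, a mitochondrial arginase, rose by 1.02 at both days (limma adjusted p = 0.00299 and 0.00214).

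The genes whose pattern was most like each of the 6 were sought among 10589 genes by Pearson correlation of log2 values over the 18 libraries, centred on the mean of each table. These libraries share genotype, mouse and time, so the coefficients are descriptions. For *Sis* the closest were *Fam20a*, *Zg16* and *Sytl2* (r = 0.97 for each), with log2 differences in crypts of -3.35, -4.98 and -4.25; *Zg16* is known as a goblet cell granule lectin. For *Mgam* they included *Cyp3a11* (0.94) and *Acsm5* (0.93), for *Lct* *Cyp27a1*, *Tsc22d3* and *Cyb561a3* (0.96 each), and for *Treh* *Unc93a2*, *Adh1* and *Cda* (0.95 each). *Slc5a1* was closest to *Cobl* (0.99), *Gpd1* (0.97) and *Slc2a2* (0.97), and *Slc2a2* to *Vat1*, *Gpd1* and *4931406C07Rik* (0.98 each). Among the 6 genes, *Sis* correlated with *Mgam* at 0.32 and with *Lct* at -0.51, while the other 5 correlated with one another at 0.58 to 0.97.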

How the data were processed

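Polyadenylated RNA of duodenal crypts and enteroids was sequenced with a stranded TruSeq kit as single 50-base reads. The authors trimmed reads with fastp 0.20.0, quantified them with Salmon 1.3.0 against GENCODE, omitted genes with counts of 1 or less across all samples, and deposited DESeq2 1.26.0 tables for crypts, day 1 and day 3, normalized separately. The unit is signal: gene counts that the authors divided by 1 size factor per library. All 18838 gene IDs matched GENCODE M21. Columns with the authors' base means, fold changes, errors and p-values were not used.

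Genes with a mean of at least 10 normalized counts in a table were tested on log2(value + 1) with limma 3.58.1 (R 4.3.3, eBayes with trend, two-sided, Benjamini-Hochberg adjustment over all genes tested, threshold 0.05), 3 WT against 3 null libraries at each time. A fold change on this scale understates the change of low genes. The change of the genotype difference between crypts and day 3 was fitted to the 18 libraries together, with mouse as a random effect. The estimated correlation within a mouse was -0.0048, so this effect had almost no influence on the fit. The fits were also run on simulated counts with a single setting of spread for all genes and no effect of mouse. That check does not cover genes that vary as much between mice as *Sis* did in null libraries. An exact permutation test of 3 against 3 libraries cannot go below p = 0.1 and was not used. Libraries of 1 mouse at the 3 times share that mouse. Whole reads were recovered from the steps of low values in 16 libraries (100% of values within 0.1 of a whole read); the values of WT crypt library 2 and null day 3 library 2 also fell on steps (0.990 and 0.994), but so near 1 that the check for recovered reads does not accept them, and both were left out where edgeR 4.0.16 and DESeq2 1.42.0 were run as alternatives. Values between genes were divided by the longest GENCODE transcript.

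The 6 genes and all gene lists were chosen with earlier results of these data known. Named list genes are up to 3 called genes of largest change per list and time, plus *Slc2a5*, *Prdm1*, *Cdx2*, *Gata4* and *Hnf4a*; some genes this rule names are not reported here. Likeness was computed for genes with a mean of at least 50 in each table. Marker lists of stem and tuft cell genes were also summed. Alternatives were other pseudocounts (0.1 and 8), filters, scalings, weights, a replicate block, other tools and leaving out each library. Deviations of same-numbered WT and null mice correlated at 0.12, 0.23 and 0.22 at day 1, each over 0.1, at 0.08, 0.27 and 0.35 in crypts and at -0.01, -0.00 and -0.02 at day 3; the labels do not say what a shared number marks.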

Additional observations from a re-analysis of the deposited data

Results flagged for a closer look

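The genotype difference of 5 genes differed between crypts and day 3 enteroids by the interaction test over 18 libraries. The log2 difference, null minus WT, became more positive by 3.38 for *Sis*, 1.32 for *Mgam*, 1.47 for *Treh*, 1.57 for *Slc5a1* and 2.12 for *Slc2a2*. For *Sis* both differences were negative and the gap narrowed, with null mouse 2 within the WT range of normalized counts at day 3, whereas *Slc5a1*, *Slc2a2* and *Treh* did not pass the threshold in crypts and passed it at day 3, with higher null values. With 3 libraries a group, no test for a single library standing apart was made.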

How the results depend on the processing

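Of 624 values recomputed under alternatives, 569 counted as unchanged. Among these, tested differences kept their direction and their side of the threshold. Untested differences and changes kept their direction and stayed within the spread between mice, and counts of genes called stayed within a set ratio of the main count. In crypts, 614 genes were called; this was 2100 with array weights, 239 with edgeR and 1217 with DESeq2 on the recovered reads of 5 libraries, and 176 to 608 when 1 library was left out. The number of the 6 genes called in crypts was 3 with array weights, 2 with DESeq2 (*Sis* and *Mgam*) and 1 to 2 when 1 library was left out. *Lct* in crypts turned to -0.48 with edgeR, -0.46 with DESeq2, -0.13 without WT library 1, -0.27 without WT library 2 and -0.14 without null library 3, and ranged from -0.27 to 0.77 over the libraries left out. *Treh* in crypts ranged from -0.59 to 0.15, the latter without null library 2. The cause was not tested. For the change between crypts and day 3, leaving out 1 library gave 2494 (without null crypt library 2) to 4172 genes called against 3834. *Sis* at day 3 passed the threshold on CPM (-1.33, adjusted p = 0.0254), after quantile normalization (-1.47, adjusted p = 0.00988), with array weights (-1.45, adjusted p = 0.000152) and with edgeR (-1.71, adjusted p = 9.21e-05) and DESeq2 (-1.71, adjusted p = 1.69e-27) on 5 libraries; these lacked null mouse 2, and limma without it gave -1.73. The change of *Mgam* from crypts to day 1 in null mice turned to 0.0047 when all 18 libraries were scaled together. Among the list genes called, the scalings turned the direction of 3 at day 1, *Ganab* among them, and of no other, a check chosen after seeing the data.

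With the replicate number as a block, 562 genes were called in crypts, 8027 at day 1, 7289 at day 3 and 3543 for the change between crypts and day 3; among the 6 genes the block changed the calls of *Treh* and *Lct* for that change and no other. Every pair of same-numbered mice correlated above 0.1 at day 1 alone. In crypts the pairs were also positive, with a mean of 0.23, and at day 3 the mean was -0.01. The mean of the other pairs (-0.12 in crypts) follows closely from centring on the genotype mean, so it adds no separate information. Depth did not limit the 6 genes, whose lowest value was 398 normalized counts. The 3 mice a group limit the precision. The p-values set a difference against the spread between libraries of a group, drawn toward that of genes of like level. For the change between crypts and day 3, that spread was taken over all 6 groups of libraries.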

Other observations

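The remaining marker lists give the cell type context of the 6 genes. The 5 stem cell markers summed to 29023 to 37318 normalized counts in WT crypts and 2692 to 5159 in null crypts, and *Olfm4*, a marker of crypt base cells, fell by 6.77 on the log2 scale (limma adjusted p = 0.000621). *Olfm4* made up most of the WT crypt sum, with 29968 ± 3831, and the other 4 markers were not called in crypts: *Lgr5*, the stem cell receptor, read 256 ± 35.1 in WT and 387 ± 175 in null (limma adjusted p = 0.497). All 5 were called lower at day 1 and at day 3. The tuft cell markers summed to 826 to 1050 in WT and 1215 to 3874 in null crypts, with none called. At day 1, 2 of 3 were called lower, and at day 3, 3 of 3. Of all genes, 3.15% were called lower in crypts, 28.9% at day 1 and 29.1% at day 3. In either direction 58.9% of all genes were called at day 1 and 59.0% at day 3. Of the ileal markers, *Slc10a2* and *Fgf15* were higher in null than in WT at day 3, by 2.04 and 1.94 (limma adjusted p = 0.000116 and 0.000984). Their null means were 147 ± 22.7 and 53.5 ± 14.4, and their WT means were 34.8 ± 4.30 and 12.9 ± 1.48.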
